A study of Mus musculus with 6 samples.

Results

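The genes described here are 10 early feedback genes of growth factor signalling, comprising the MAP kinase phosphatase genes Dusp1, Dusp4, Dusp5 and Dusp6, the Sprouty genes Spry1, Spry2 and Spry4, the related inhibitor gene Spred1, and the ETS transcription factor genes Etv4 and Etv5. They were chosen by symbol, with earlier results of these data known, and all 10 were found among the 24354 genes of the expression table. Their mRNA levels were measured by RNA-seq in TM4, an established mouse cell line labelled as Sertoli cells, the somatic cells that nurse germ cells in the testis. There were 3 control libraries and 3 libraries of cells exposed to 100 nM aluminium chloride (AlCl3), all at day 30, and both groups were grown in serum-containing medium. The labels name no vehicle for the controls. They also do not say whether replicates were separate cultures, so p-values here reflect no more than library-to-library spread, which may be technical.

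Growth factor receptors signal through Ras and a chain of kinases to the MAP kinase ERK, while stress signals run largely through the MAP kinases p38 and JNK. Active ERK induces a set of genes that dampen the same pathway: dual-specificity phosphatases remove the activating phosphates from MAP kinases, and Sprouty and Spred proteins act upstream, between receptor and Raf. Etv4 and Etv5 belong to the PEA3 group of ETS factors, which carry the response on to further genes, and Etv5 in Sertoli cells of the mouse is known for its part in maintaining spermatogonial stem cells. The mRNAs of these genes are mostly short-lived and are widely read as a record of recent ERK activity, although protein and phosphorylation were not measured here.

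The promoters of 7 of the 10 genes were available from RefSeq (GRCm38.p6) as windows of 300 bases, 250 before the transcription start and 50 from it on. They were searched on both strands for the cyclic AMP response element TGACGTCA, the AP-1 site TGANTCA, the ETS site CCGGAAG, the Capicua octamers TGAATGAA, TGAATGGA, TCAATGAA and TCAATGGA, and the CArG box that serum response factor binds. None of these overlapped another in the windows of these genes. Matches were found in 4 of them, and the stretches that hold the upstream matches are printed here, in the direction of transcription, because they are the only matches before a start among these genes. Capitals mark the match.
Dusp1: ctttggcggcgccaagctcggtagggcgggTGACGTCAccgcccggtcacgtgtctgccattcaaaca
Dusp5: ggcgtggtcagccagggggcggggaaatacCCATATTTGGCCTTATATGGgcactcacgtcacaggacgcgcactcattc
Dusp6: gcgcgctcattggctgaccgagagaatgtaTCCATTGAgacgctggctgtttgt
Spry2: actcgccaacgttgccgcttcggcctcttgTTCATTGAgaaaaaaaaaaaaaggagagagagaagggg

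The Dusp1 stretch (chr17:26508578-26508645, minus strand) holds a cyclic AMP response element that begins 143 bases before the start, and 1.79% of all 32851 promoter windows hold this motif. In Dusp5 (chr19:53529033-53529112, plus strand) 2 CArG boxes stand end to end, beginning 82 and 72 bases before the start, and 1.63% of windows hold a CArG box. A Capicua octamer lies on the opposite strand 24 bases before the start of Dusp6 (chr10:99263177-99263230, plus strand), with another just after the start, and 1 lies 54 bases before that of Spry2 (chr14:105896836-105896903, minus strand). Capicua is a repressor that ERK relieves, and its octamers occur in 3.84% of windows. No AP-1 site (7.81% of windows) or ETS site of these letters (8.86%) was present in any of the 7. The windows of Etv5, Spred1 and Spry1 held no match at all. For Spred1, and for the Etv5 window at chr16:22438319-22438618, the bases just after the start were in no annotated transcript of the gene. Dusp4, Etv4 and Spry4 had no window. A match describes these letters and is not evidence that a factor binds.

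FPKM values are read counts divided by exon length and library size, and the library sizes behind them ran from 13583555 in AlCl3 2 to 17608616 in AlCl3 1. For an exon length of 1 kb, 1 read thus amounts to 0.0568 to 0.0736 FPKM depending on the library. Correlations of log2 values were at least 0.978 within groups and at most 0.904 between them. Among Sertoli markers 4 of 7 tested were lower and 1 higher (71.4% passed, 61.3% over all genes tested). Gata4 went from 11.6 ± 2.03 to 6.33 ± 0.435 FPKM (SD, n = 3 each, limma adjusted p = 0.00127). Inhbb, the most abundant of these markers, went from 72.1 ± 13.1 to 46.0 ± 2.58 FPKM (limma adjusted p = 0.00533). The higher gene was Sox9, at 1.01 ± 0.0895 and 1.61 ± 0.0994 FPKM (limma adjusted p = 0.0173). Wt1 and Amh were at or below 0.204 FPKM in every library. The labels' extraction protocol mentions retinas, and retina markers summed to 19.6 to 24.9 FPKM in controls and 14.6 to 15.9 FPKM in AlCl3. Nearly all of that was Rbpms, an RNA-binding protein gene and the 1 retina marker tested, which was lower (21.9 ± 2.72 and 15.1 ± 0.726 FPKM; limma adjusted p = 0.00565), while Nrl, a photoreceptor transcription factor gene, held at most 1 read in any library. Leydig and germ cell markers stayed below the filter, and smooth muscle markers summed to 693 to 720.5 FPKM in controls and 290 to 329 FPKM in AlCl3, with 3 of 4 tested genes lower. Most of that sum was Acta2 (454 ± 14.0 and 183 ± 14.9 FPKM) and Myl9 (230 ± 27.6 and 111 ± 14.6 FPKM). Myh11 held at most 1 read in any library, and Tagln was at or below 0.492 FPKM. Macrophage markers summed to 8.18 to 10.1 FPKM in controls and 31.0 to 33.4 FPKM in AlCl3, with 1 of 2 tested genes higher. That gene was Cd14, a receptor gene for bacterial lipopolysaccharide, which carried most of the sum (7.35 ± 0.779 and 30.7 ± 1.11 FPKM). Cd68 was at 1.16 ± 0.266 and 1.19 ± 0.313 FPKM and did not pass, and Csf1r, Aif1 and Lyz2 held at most 10 reads in any library. The part of such markers in the results was not tested.

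After AlCl3, Dusp4, Dusp5, Etv4 and Etv5 stood 2.26 to 4.03 times as high as in controls, Spred1 and Dusp6 rose less, Dusp1 fell 2.74-fold, and Spry2 and Spry4 did not pass the test. Spry1, too low on average to be tested, was 8.66-fold lower by the ratio of means. Of the 10 genes 9 reached a mean of 1 FPKM and were tested with limma on log2(FPKM + 1), and 6 were higher and 1 lower at an adjusted p under 0.05. Over all 11202 genes tested 61.3% passed, 31.2% higher and 30.2% lower, so passing the test was the common outcome in these libraries. With no filter on the mean, 5 of the 10 genes passed as higher and 2, Dusp1 and Spry1, as lower. Of all 24354 genes 30.65% passed in that fit. The median log2 fold change was 0.69 for the 9 genes tested and 0.03 for all genes tested. The former leaves out Spry1, at -1.10 in the fit with no filter. The 3 AlCl3 values lay wholly above or below the 3 control values in 8 of the 9, and in 66.1% of all genes tested. Exact two-sided permutation tests of 3 against 3 values gave p = 0.1 for each of these 8 genes and for Spry1, the smallest p that design allows. In such bulk samples, fewer cells that express a gene and less RNA per cell cannot be told apart.

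**Figure D1:**
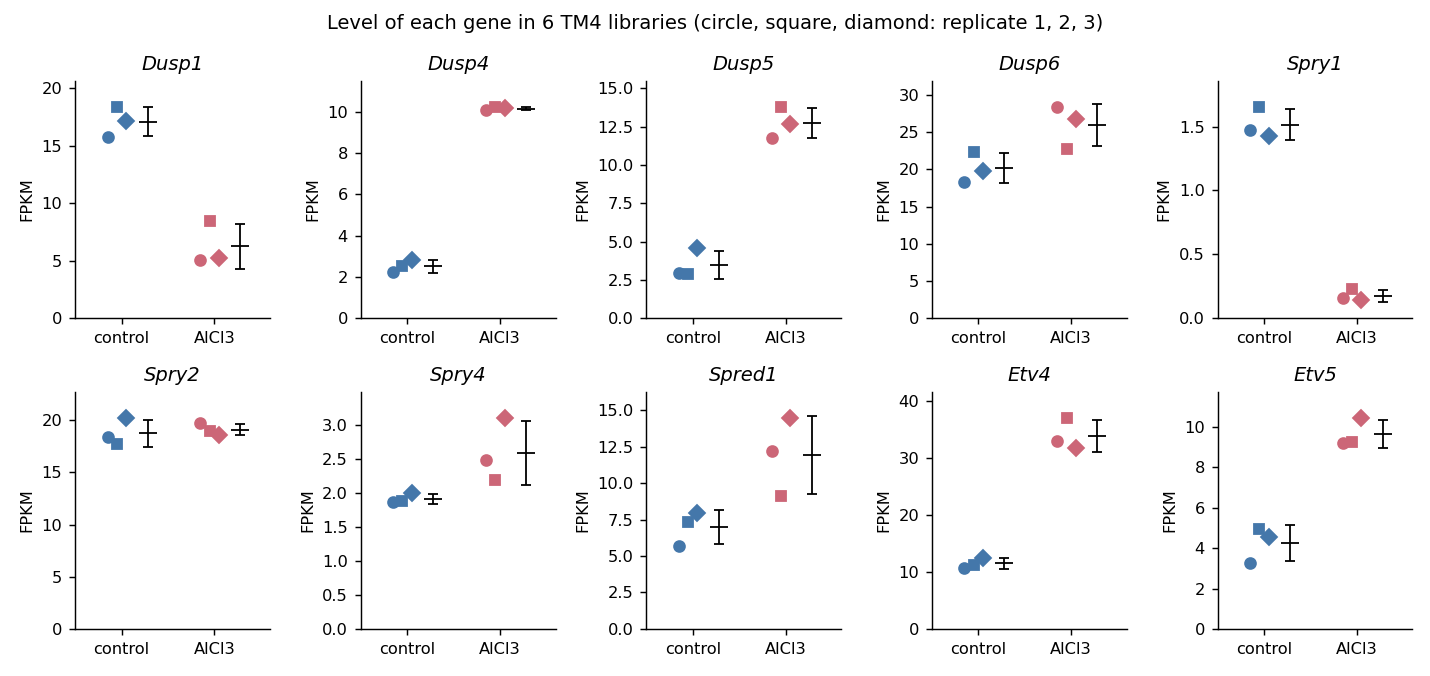
FPKM of each of the 10 genes in 3 control and 3 AlCl3 libraries, with the mean and SD of each group as a bar to the right of its points and a vertical axis from 0 in every panel. Of the 10, Spry2 alone has points that overlap between groups; Dusp1 and Spry1 are lower in AlCl3 and the other 7 are higher.

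Among the phosphatases, the genes of the nuclear enzymes Dusp4 and Dusp5 rose most. Dusp4 (ENSMUSG00000031530; chromosome 8, 34807297 to 34819894, GRCm38), whose product acts on ERK, JNK and p38, stood at 2.22, 2.51 and 2.83 FPKM in control 1 to 3 and at 10.1, 10.2 and 10.2 FPKM in AlCl3 1 to 3. The AlCl3 libraries were nearly identical for it and far above every control, with 101 to 135 recovered reads per control library and 380 to 486 per AlCl3 library. This is 4.03-fold by the ratio of means, and a log2 fold change of 1.67 (SE 0.12, limma adjusted p = 5.6e-06), a scale on which the added 1 FPKM shrinks the change of low genes. Only 268 of the 11202 genes tested had a higher log2 fold change.

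Dusp5 (ENSMUSG00000034765; chromosome 19, 53529109 to 53542431), a nuclear phosphatase selective for ERK, was at 2.97, 2.90 and 4.56 FPKM in controls and at 11.8, 13.8 and 12.7 FPKM in AlCl3. Control 3 was the highest of the controls, yet the lowest AlCl3 value was still more than double it. The ratio of means was 3.67 and the log2 fold change 1.64 (SE 0.16, limma adjusted p = 2.7e-05). An antisense gene overlaps 547 exon bases of Dusp5. The control libraries gave it 5 reads and Dusp5 439, and the AlCl3 libraries 14 and 1513.

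Dusp6 (ENSMUSG00000019960; chromosome 10, 99263231 to 99267489), the cytoplasmic phosphatase that is selective for ERK and often used as a readout of its activity, was the most abundant of the 4 phosphatase genes and moved least. Its levels were 18.3, 22.3 and 19.8 FPKM in controls and 28.3, 22.8 and 26.8 FPKM in AlCl3. The groups were set apart only narrowly, since AlCl3 2 exceeded control 2 by less than 1 FPKM. The log2 fold change of 0.35 (SE 0.13, 95% interval 0.06 to 0.64) passed at a limma adjusted p of 0.039. The call was lost without control 1, control 3, AlCl3 1 or AlCl3 3 (adjusted p 0.087, 0.080, 0.16 and 0.11), without the FPKM filter (0.065), and in the GC-adjusted fit, from which a trend on GC content and exon length was removed (0.089, log2 fold change 0.23).

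Dusp1 (ENSMUSG00000024190; chromosome 17, 26505590 to 26562128), the nuclear phosphatase induced as an immediate early gene and acting mainly on p38 and JNK, went the other way. It was at 15.8, 18.3 and 17.1 FPKM in controls and at 5.04, 8.47 and 5.19 FPKM in AlCl3. All AlCl3 libraries lay below all controls, with AlCl3 2 the highest of them. The log2 fold change was -1.35 (SE 0.18, limma adjusted p = 0.000165), and -1.56 without AlCl3 2. The gene shares 11 exon bases with Ergic1 on the opposite strand. The control libraries gave Ergic1 12854 reads and Dusp1 2876, the AlCl3 libraries 8994 and 970, and no source used here states whether counting used the strand.

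The makeup of the phosphatase mRNA pool therefore differed between groups while its total moved less. The 4 genes summed to 39.3 to 46.0 FPKM in controls and 54.8 to 55.2 FPKM in AlCl3. Dusp1 made up 39.5 ± 0.782% of that sum in controls and 11.3 ± 3.49% in AlCl3 (SD, n = 3 each). Dusp4 and Dusp5 together went the opposite way, with mean shares of 5.83% and 8.05% in controls and 18.4% and 23.1% in AlCl3. The share of Dusp6 was 46.6 ± 1.91% and 47.1 ± 5.22%.

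The other typical MAP kinase phosphatase genes were divided, with 1 of 5 tested higher and 2 lower (60% passed, 61.3% over all genes). Their median log2 fold change was -0.14. Dusp9, a cytoplasmic phosphatase of the same subgroup as Dusp6, rose from between 8.18 and 10.6 FPKM in controls to between 20.8 and 22.8 FPKM in AlCl3 (log2 fold change 1.19, limma adjusted p = 5.2e-05). Dusp10, which acts on p38 and JNK, fell from 4.90 ± 0.751 to 3.02 ± 0.424 FPKM (limma adjusted p = 0.00719). Dusp8, of the same substrate group, fell from 4.02 ± 0.684 to 2.56 ± 0.330 FPKM (limma adjusted p = 0.013). That call was lost in the GC-adjusted fit (0.76, log2 fold change -0.03), after rescaling to TPM (0.074) and without control 3 (0.051) or AlCl3 1 (0.063). Dusp7 stood at 11.3 ± 1.98 and 10.1 ± 1.23 FPKM, and Dusp16 at 4.35 ± 0.831 and 5.62 ± 1.10 FPKM, neither passing the test. In the GC-adjusted fit Dusp7 turned direction and passed as higher (log2 fold change 0.29, limma adjusted p = 0.038). Dusp2 was below the filter, with at most 0.0861 FPKM in any library. All 10 typical phosphatases together summed to 76.8 ± 7.88 FPKM in controls and 98.0 ± 2.64 FPKM in AlCl3.

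**Figure D2:**
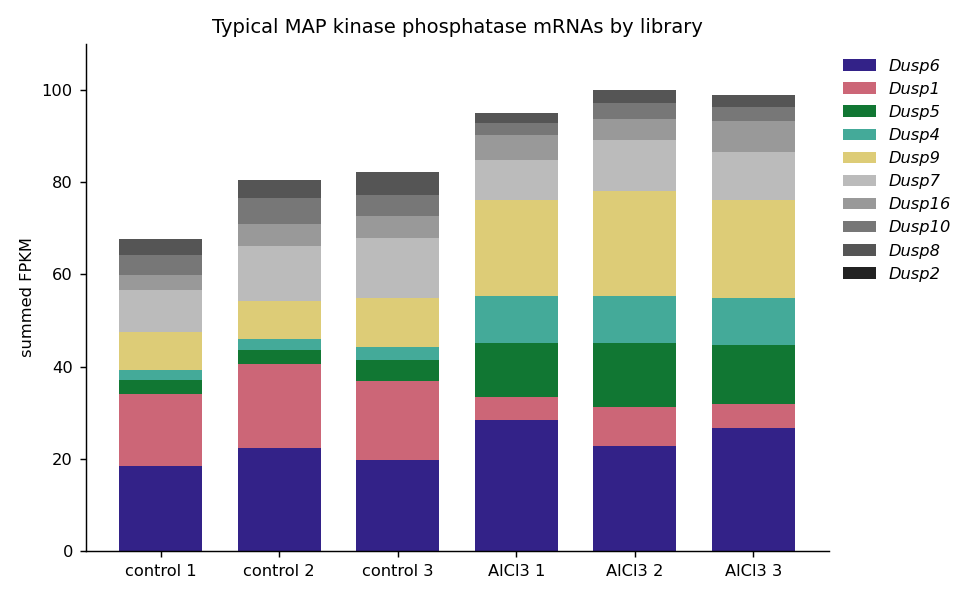
FPKM of the 10 typical MAP kinase phosphatase genes stacked by library, from 0, with control 1 to 3 on the left and AlCl3 1 to 3 on the right. The Dusp1 segment shrinks from 15.8 to 18.3 FPKM in controls to 5.04 to 8.47 FPKM in AlCl3, while the Dusp4, Dusp5 and Dusp9 segments widen.

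A further 12 dual-specificity phosphatase genes are mostly of small enzymes that lack the MAP kinase binding domain of the typical members. Of 8 tested 0 were higher and 2 lower (25% passed, 61.3% over all genes), with a median log2 fold change of -0.19. Dusp14 fell from 36.8 ± 3.30 to 12.7 ± 0.786 FPKM (-1.46 on the log2 scale at a limma adjusted p of 1.0e-05) and Dusp28 from 5.44 ± 1.05 to 1.63 ± 0.188 FPKM. Dusp11, an RNA phosphatase gene, was at 21.9 ± 1.74 and 19.8 ± 2.74 FPKM, Dusp3 at 5.14 ± 0.660 and 4.17 ± 0.415 FPKM and Dusp18 at 9.85 ± 2.37 and 7.33 ± 0.855 FPKM. These last 3 did not pass (limma adjusted p 0.38, 0.12 and 0.10), but in the GC-adjusted fit all 3 passed as lower, with log2 fold changes of -0.39, -0.40 and -0.55. Dusp18 also passed as lower without control 1 (limma adjusted p = 0.00678).

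Of the 3 Sprouty genes, which dampen receptor signalling, Spry1 was lower in every AlCl3 library, and Spry2 and Spry4 did not pass the test. Spry2 (ENSMUSG00000022114; chromosome 14, 105891947 to 105896819), the most abundant, was at 18.4, 17.7 and 20.2 FPKM in controls and at 19.7, 19.0 and 18.6 FPKM in AlCl3. These values interleave, and the log2 fold change was 0.03 (95% interval -0.22 to 0.27, limma adjusted p = 0.85; exact permutation p = 0.7). It was -0.19 in the GC-adjusted fit and -0.01 without control 2. An equal level is not shown by this, but the interval leaves out changes as large as those of Dusp4 or Etv4.

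Spry1 (ENSMUSG00000037211; chromosome 3, 37639947 to 37644598), best known for restraining receptor tyrosine kinase signalling in kidney development, was the lowest of the 10 genes and had the largest ratio. It stood at 1.47, 1.65 and 1.42 FPKM in controls and at 0.156, 0.228 and 0.140 FPKM in AlCl3. In recovered reads this was 71, 81 and 72 in controls and 8, 9 and 7 in AlCl3, so that no AlCl3 library came near a control. The ratio of means was 8.66-fold lower in AlCl3. Its mean over the 6 libraries was under the filter of 1 FPKM, so it was not among the 9 genes tested. With no filter its log2 fold change of FPKM + 1 was -1.10 (SE 0.08, limma adjusted p = 0.000406), and, chosen after seeing the data, with adjusted p between 0.00264 and 0.00687 when any single library was left out.

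Spry4 (ENSMUSG00000024427; chromosome 18, 38586247 to 38601415), which inhibits Ras activation, was at 1.86, 1.88 and 1.99 FPKM in controls and at 2.48, 2.18 and 3.10 FPKM in AlCl3. Every AlCl3 value exceeded every control, but the AlCl3 libraries were spread widely. Its log2 fold change of 0.29 (SE 0.13, 95% interval -0.0012 to 0.59) did not pass (limma adjusted p = 0.078), and passed without AlCl3 2 (0.035). The 3 Sprouty genes together summed to 22.2 ± 1.26 FPKM in controls and 21.9 ± 0.459 FPKM in AlCl3, of which Spry2 made up 84.5% and 87.4%. The remaining family member Spry3, named after its values were seen, was at 2.39 ± 0.135 and 3.05 ± 0.430 FPKM (limma adjusted p = 0.11).

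Spred1 (ENSMUSG00000027351; chromosome 2, 117121374 to 117182279), whose product brings the Ras inactivator neurofibromin to the membrane, was at 5.66, 7.35 and 7.96 FPKM in controls and at 12.2, 9.15 and 14.5 FPKM in AlCl3. The groups did not overlap, and AlCl3 2 lay closest to the controls. The log2 fold change was 0.69 (SE 0.18, limma adjusted p = 0.00807). It was 0.36 in the GC-adjusted fit (adjusted p = 0.046), and the tenth of genes with the least GC, which holds Spred1, had a median log2 fold change of 0.33. Spred2, its close relative and likewise named after its values were seen, rose from 11.5 ± 1.51 to 15.5 ± 1.15 FPKM (limma adjusted p = 0.021). Its call was lost without control 2 (0.050) or AlCl3 3 (0.077).

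Of 14 other Sprouty, Spred and receptor feedback genes tested, Spred2 among them, 3 were higher and 3 lower (42.9% passed, 61.3% over all genes). Their median log2 fold change was 0.03. Socs3, an inhibitor of cytokine receptor signalling, fell from 56.5 ± 7.90 to 7.23 ± 1.72 FPKM (-2.82 on the log2 scale at a limma adjusted p of 3.4e-06). Lrig3 fell from 3.13 ± 0.264 to 1.48 ± 0.149 FPKM and the ubiquitin ligase gene Cblb from 2.02 ± 0.322 to 0.898 ± 0.121 FPKM. Rasa1, a GTPase-activating protein that switches Ras off, rose from 2.57 ± 0.673 to 7.40 ± 1.47 FPKM (1.24 on the log2 scale at a limma adjusted p of 0.000288). Errfi1, an inhibitor of the epidermal growth factor receptor, rose from 31.7 ± 3.91 to 43.5 ± 2.68 FPKM (limma adjusted p = 0.012). Its call was lost in the GC-adjusted fit (0.088). Lrig1, another inhibitor of that receptor, was at 47.2 ± 5.95 and 50.4 ± 1.43 FPKM and passed, as higher, in the GC-adjusted fit alone (log2 fold change 0.35).

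Both ETS factor genes rose. Etv4 (ENSMUSG00000017724; chromosome 11, 101769742 to 101785371) was at 10.7, 11.3 and 12.5 FPKM in controls and at 33.0, 37.0 and 31.7 FPKM in AlCl3. The lowest AlCl3 library held more than double the highest control, and recovered reads numbered 550 to 675 per control library and 1560 to 1802 per AlCl3 library. The ratio of means was 2.95 and the log2 fold change 1.48 (SE 0.12, limma adjusted p = 9.6e-06). Etv5 (ENSMUSG00000013089; chromosome 16, 22381309 to 22439719) was at 3.26, 4.95 and 4.57 FPKM in controls and at 9.20, 9.26 and 10.4 FPKM in AlCl3, again with no overlap. Its ratio of means was 2.26 and its log2 fold change 1.03 (SE 0.15, limma adjusted p = 0.000274).

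Etv4 made up 73.1 ± 3.54% of their summed level in controls and 77.8 ± 2.40% in AlCl3. The third PEA3 gene, Etv1, named after its values were seen, rose from 0.772 ± 0.102 to 2.14 ± 0.492 FPKM (0.81 on the log2 scale at a limma adjusted p of 0.00103). The fold changes of the whole table followed GC content. Etv4 lay in the tenth of genes highest in GC, whose median log2 fold change was -0.53, and Dusp4 and Dusp5 in the tenth below it (-0.35). After removal of the trend their log2 fold changes were 1.98 for Etv4, 2.02 for Dusp4 and 2.04 for Dusp5.

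**Figure D3:**
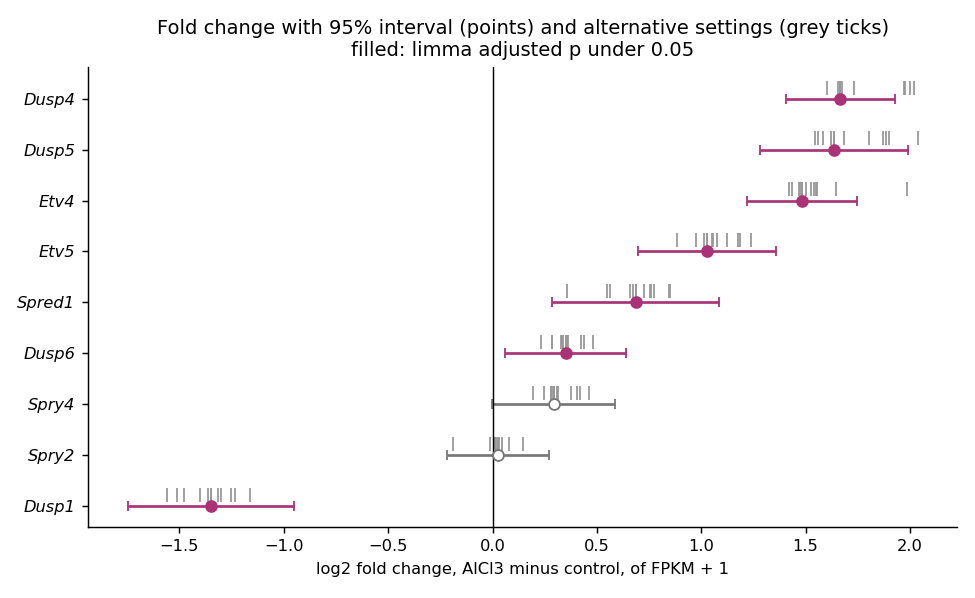
Log2 fold change of FPKM + 1 for the 9 genes tested, with the 95% interval of the limma fit, and in grey the value under each of up to 14 alternative settings. The intervals of Dusp4, Dusp5, Etv4, Etv5 and Spred1 lie above 0 and that of Dusp1 below it, that of Dusp6 begins at 0.06, and those of Spry4 and Spry2 include 0.

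In controls the order of mean FPKM was Dusp6, Spry2, Dusp1, Etv4, Spred1, Etv5, Dusp5, Dusp4, Spry4 and Spry1, from 20.1 down to 1.52 FPKM. In that order Dusp6 and Spry2, Spry2 and Dusp1, and Etv5 and Dusp5 overlapped in their values, and the other neighbours did not. In AlCl3 it was Etv4, Dusp6, Spry2, Dusp5, Spred1, Dusp4, Etv5, Dusp1, Spry4 and Spry1, from 33.9 down to 0.175 FPKM. The neighbours from Dusp5 to Etv5 overlapped there, and the others did not. Etv4 thus moved from the fourth place to the first, and Dusp1 from the third to the eighth.

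The tested genes whose log2 levels followed Dusp6 most closely over the 6 libraries were Zfp747, Mcl1, Mtmr12, Fbxo7 and Zfp248, with Pearson r from 0.978 to 0.987. In all, 37 genes reached an r of 0.95, a description over 6 points that share 2 groups. Within the set, Spred1 was closest to Dusp6 (r = 0.92), followed by Etv5 (0.89), Dusp4 (0.83), Spry4 (0.81), Etv4 (0.79) and Dusp5 (0.76). Dusp1 was at -0.88 and Spry2 at 0.11. Within the AlCl3 group, AlCl3 2 was the lowest library for Dusp6, Spred1 and Spry4 and the highest for Dusp1, Dusp4, Dusp5, Spry1 and Etv4. That library was also the shallowest, and whether its depth plays a part was not tested.

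Upstream of these genes, mRNAs of growth factor receptors and adaptors were lower in 11 of 19 tested and higher in 2 (68.4% passed, 61.3% over all genes). Their median log2 fold change was -0.59 against 0.03 for all genes, neither adjusted for the GC trend. Frs3, an adaptor of fibroblast growth factor (FGF) receptors, fell from 6.88 ± 0.151 to 1.19 ± 0.287 FPKM (-1.86 on the log2 scale at a limma adjusted p of 5.6e-06). The receptor gene Fgfr1 fell from 27.4 ± 4.36 to 11.4 ± 1.20 FPKM, Fgfrl1, a related receptor without a kinase domain, from 20.7 ± 3.06 to 7.65 ± 0.873 FPKM, and the platelet-derived growth factor receptor gene Pdgfrb from 7.60 ± 1.18 to 2.75 ± 0.287 FPKM. Frs3 and Fgfrl1 lay in the tenth of genes highest in GC (median log2 fold change -0.53) and Fgfr1 in the tenth below it (-0.35). Over the alternative settings log2 fold changes ran from -2.58 to -1.26 for Frs3 and -1.44 to -0.86 for Fgfrl1. They ran from -1.32 to -0.82 for Fgfr1 and -1.46 to -0.96 for Pdgfrb. The adaptor gene Grb2 fell from 47.8 ± 5.32 to 34.7 ± 1.53 FPKM (limma adjusted p = 0.011). Its call was lost after rescaling to TPM (0.097). Shc1 was at 33.7 ± 2.04 and 29.0 ± 1.18 FPKM (limma adjusted p = 0.12). The 2 higher genes, named after their values were seen, were Pdgfra and Ptpn11. Pdgfra, another platelet-derived growth factor receptor gene, rose from 6.82 ± 1.30 to 10.5 ± 1.95 FPKM (limma adjusted p = 0.0165). Ptpn11 rose from 21.2 ± 2.75 to 32.7 ± 3.78 FPKM (limma adjusted p = 0.00432).

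Among ligand genes 2 of 12 tested were higher and 5 lower (58.3% passed, 61.3% over all genes), with a median log2 fold change of -0.34. Ereg, which encodes epiregulin, a ligand of the epidermal growth factor receptor, rose from 4.96 ± 0.735 to 18.0 ± 4.04 FPKM (1.65 on the log2 scale at a limma adjusted p of 4.7e-05). Fgf21, a stress-induced hormone of the FGF family, fell from 5.98 ± 0.926 to 0.138 ± 0.0869 FPKM, Igf1 from 4.34 ± 1.22 to 0.269 ± 0.0513 FPKM and Pdgfa from 11.8 ± 0.264 to 6.52 ± 0.702 FPKM. Fgf7 was the most abundant ligand mRNA at 62.3 ± 2.09 and 77.3 ± 8.86 FPKM (limma adjusted p = 0.062). It passed, higher, without AlCl3 2 (0.022) and after rescaling to TPM (0.034), and its sign turned in the GC-adjusted fit (log2 fold change -0.0071, adjusted p = 0.95).

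In the Ras to ERK cascade 6 of 21 genes were higher and 9 lower (71.4% passed, 61.3% over all genes). Their median log2 fold change was -0.19. The Ras gene Nras rose from 11.2 ± 0.947 to 26.6 ± 2.56 FPKM (log2 fold change 1.17), whereas the Ras relatives Rras and Mras fell, Rras from 77.4 ± 3.99 to 22.7 ± 1.14 FPKM (-1.73) and Mras from 10.1 ± 0.705 to 3.37 ± 0.291 FPKM (-1.35). Map2k1, which encodes the ERK-activating kinase MEK, fell from 98.6 ± 3.17 to 42.2 ± 4.40 FPKM (-1.21), and Mapk3, which encodes an ERK, from 103 ± 9.13 to 59.7 ± 8.37 FPKM (-0.79). Each of these 5 passed, at limma adjusted p from 4.0e-06 to 0.000961. Over the alternative settings the log2 fold change ran from 0.82 to 1.33 for Nras, -1.78 to -1.26 for Rras and -1.60 to -1.14 for Mras. It ran from -1.29 to -1.10 for Map2k1 and from -0.90 to -0.33 for Mapk3. Mapk3 lay in the tenth of genes just below the highest in GC, whose median log2 fold change was -0.35.

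In the p38 and JNK cascade 6 of 13 genes were higher and 4 lower (76.9% passed, 61.3% over all genes). Their median log2 fold change was -0.11. The JNK gene Mapk9 fell from 10.4 ± 1.18 to 4.08 ± 0.425 FPKM, the p38 gene Mapk11 from 12.2 ± 0.554 to 7.61 ± 0.423 FPKM and the p38-activated kinase gene Mapkapk2 from 109 ± 10.5 to 58.2 ± 5.53 FPKM. Map3k7, an upstream kinase gene, rose from 4.18 ± 0.673 to 9.25 ± 1.82 FPKM and Map2k3, which activates p38, from 16.2 ± 1.46 to 23.6 ± 0.192 FPKM. Limma adjusted p-values of these 5 genes lay between 5.6e-05 and 0.00292. Over the alternative settings the log2 fold change ran from -1.42 to -1.10 for Mapk9, -0.69 to -0.26 for Mapk11 and -0.97 to -0.44 for Mapkapk2. It ran from 0.70 to 1.18 for Map3k7 and from 0.45 to 0.74 for Map2k3. Mapk11 and Mapkapk2 lay in the tenth of genes just below the highest in GC, whose median log2 fold change was -0.35. JNK and p38 genes moved in both directions. Mapk8, another JNK gene, rose from 2.41 ± 0.391 to 4.44 ± 0.417 FPKM (limma adjusted p = 0.00167), and Mapk14, the most abundant p38 gene, from 14.2 ± 0.621 to 20.1 ± 2.17 FPKM (limma adjusted p = 0.00707), both named after their values were seen.

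Other genes that ERK induces did not share 1 direction. Of 12 tested 4 were higher and 4 lower (66.7% passed, 61.3% over all genes), with a median log2 fold change of 0.13. Fosl1, an AP-1 subunit gene, rose from 2.24 ± 0.482 to 11.1 ± 2.78 FPKM (1.89 on the log2 scale at a limma adjusted p of 2.6e-05) and Ccnd1 (cyclin D1) from 31.4 ± 3.21 to 85.0 ± 3.89 FPKM (1.41, adjusted p = 1.4e-05). The immediate early gene Fos fell from 11.8 ± 2.38 to 1.87 ± 0.303 FPKM (-2.15, limma adjusted p = 7.3e-06) and Myc from 158 ± 22.2 to 66.9 ± 0.796 FPKM (-1.21, adjusted p = 5.6e-05). Ier3 was at 336 ± 27.9 and 272 ± 159 FPKM and did not pass (limma adjusted p = 0.26). Its AlCl3 2 value of 455 FPKM lay above all controls and the other AlCl3 libraries below them, and without AlCl3 2 it passed as lower (log2 fold change -0.89, limma adjusted p = 0.000967).

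Of 15 tested genes of ETS and ternary complex factors and Capicua 6 were higher and 5 lower (73.3% passed, 61.3% over all genes). Their median log2 fold change was -0.04. Srf, which encodes the factor that binds CArG boxes such as those shown for Dusp5, fell from 47.8 ± 7.39 to 24.9 ± 1.94 FPKM (limma adjusted p = 0.000384). Its call was lost in the GC-adjusted fit (0.080, log2 fold change -0.20). Its partner genes were divided, Elk1 falling from 9.24 ± 0.690 to 5.32 ± 0.638 FPKM and Elk3 rising from 13.9 ± 1.64 to 22.5 ± 1.92 FPKM (limma adjusted p 0.000947 and 0.00152). Elf1 rose from 3.89 ± 0.341 to 7.75 ± 1.11 FPKM (limma adjusted p = 0.000489). Ets2 fell from 29.2 ± 3.77 to 22.6 ± 1.30 FPKM (limma adjusted p = 0.038). Its call was lost in 7 of 14 alternatives, among them every fit without 1 of control 2, control 3, AlCl3 1, AlCl3 2 or AlCl3 3 (adjusted p 0.055 to 0.14).

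**Figure D4:**
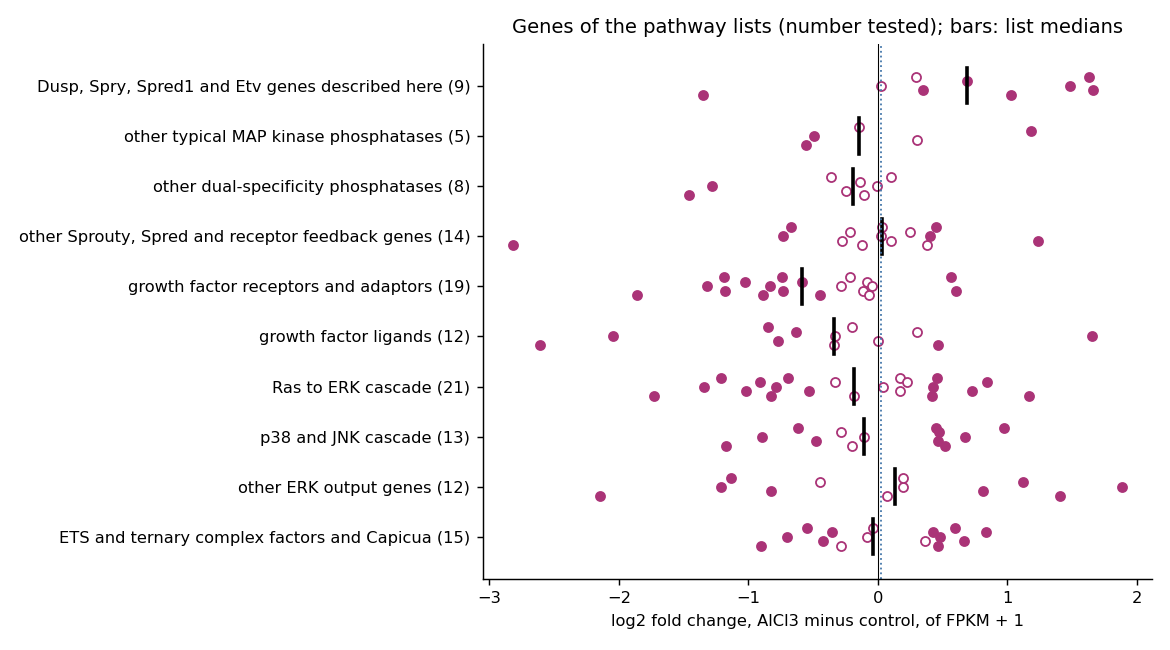
Log2 fold change of FPKM + 1 for each tested gene of the 10 lists, filled where the limma adjusted p was under 0.05, with list medians as black bars and the median of all 11202 genes (0.03) as a dotted line. The list of receptors and adaptors has the lowest median (-0.59) and the genes described here, without the untested Spry1, the highest (0.69).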

How the data were processed

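Values were deposited by the authors as FPKM, per the name and values of the table, with 1 column per library. The submitters' processing notes name HISAT2 2.1.0 and the build GRCm38. The sources used here do not state the counter, annotation, strand setting or filters. Symbols, coordinates and exon lengths came from GENCODE mouse M21 (24300 of 24354 identifiers). With its exon lengths the FPKM steps gave whole reads within 0.01 for 98.6% of matched genes in every library.

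The test was that of limma 3.58.1 (R 4.3.3), two-sided, for genes with a mean of at least 1 FPKM. Values entered as log2(FPKM + 1), the variance followed a trend and no covariate was used, with Benjamini-Hochberg adjustment over all genes tested and a threshold of 0.05. The step was tested on simulated data. Far fewer genes changed there than were called here, so that test does not show how reliable these calls are. FPKM are given as mean ± SD, and fold changes on the log2 scale understate those of low genes. Alternatives were a pseudocount of 0.1, no filter or a mean of at least 5 FPKM, TPM, median-ratio scaling, removal of a smooth trend on exon length and on GC content of the longest transcript, limma voom on recovered reads, the replicate number as a block, and leaving out each library. The 10 genes, the pathway lists and the rule for named genes (of each list the 4 smallest p and the 2 highest mean FPKM, and the 5 genes most like Dusp6) were chosen with earlier results of these data known. Etv1, Spred2, Spry3, Mapk8, Mapk14, Pdgfra, Ptpn11, Cic, the marker genes and the genes below the filter were named after their values were seen. Protein sequences were not used here.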

Additional observations from a re-analysis of the deposited data

How the results depend on the processing

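The calls of Dusp1, Dusp4, Dusp5, Etv4, Etv5 and Spred1 kept their direction and their side of the threshold in all 14 alternatives, with adjusted p at most 0.00320 for all but Spred1, which reached 0.046. Dusp6 passed in 8 of 14, with log2 fold changes from 0.23 to 0.48, Spry4 in 1 of 13 and Spry2 in 0 of 14. The number of called genes among the 10 lay between 6 and 8, and leaving out a library gave 6 to 8. Signs turned for Spry2 in the GC-adjusted fit (-0.19) and without control 2 (-0.012; leaving out 1 library gave -0.012 to 0.077), and in the GC-adjusted fit also for Dusp7 (0.29, adjusted p = 0.038) and Fgf7 (-0.0071). The cause was not tested. Rescaling to TPM moved the median log2 fold change of all genes to 0.14, from 0.03, and the share of genes called lower to 24.1%. Of 52 other genes named from the lists, leaving aside Pdgfra, Ptpn11 and Cic, 42 were called, 36 of them in every alternative run. Many of these were picked for a small p in the same data, so the counts do not measure how stable calls are. Same-numbered libraries deviated from their group means with correlations of 0.20, 0.097 and 0.39, all positive. Libraries of unlike number were not compared in this way, so these values cannot decide whether the numbers pair the libraries. The main fit did not pair them. With the replicate block 7 of the 9 genes were called, as without it, Fgf7 passed (0.048, otherwise 0.062), and the fit called 65.8% of all genes against 61.3%. On recovered reads limma voom called 3507 genes higher and 3409 lower, against 3490 and 3379 on FPKM.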

Other observations

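Some pathway genes below the filter of 1 FPKM, named after their values were seen, had groups far apart. Il17rd, which encodes a feedback inhibitor of FGF signalling induced with the Sprouty genes, was at 1.22 ± 0.163 FPKM in controls and 0.255 ± 0.0461 FPKM after AlCl3 (means ± SD of 3 libraries). In the fit with no filter its log2 fold change of FPKM + 1 was -0.82 (limma adjusted p = 0.00119). Epha4, an ephrin receptor gene, was at 0.888 ± 0.0518 and 0.0667 ± 0.0189 FPKM (limma adjusted p = 0.00029), and Erbb3, a receptor gene of the epidermal growth factor receptor family, at 0.946 ± 0.245 and 0.129 ± 0.0178 FPKM (limma adjusted p = 0.00247). Fgf2, a growth factor gene, was higher, at 0.418 ± 0.146 and 1.06 ± 0.303 FPKM (limma adjusted p = 0.033).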
